A study of Mus musculus with 32 samples.

Results

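Bdnf, Inhba, Nrn1, Vgf, Scg2 and Pcsk1 encode proteins that neurons release, carry on their surface or use to cut other secreted proteins, and their mRNAs are known to respond to neuronal activity. They are 6 of the 24062 genes in the count tables. The set was chosen by name, with earlier results on these libraries known and with no threshold on any value, so the levels and changes below describe these genes and the p-values are not independent evidence about the set.

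The libraries come from the cortex of adult male S100a10 bacTRAP mice, past postnatal day 70 in all groups, strain Tg(S100a10-EGFP/Rpl10a)ES691Htz, in which regulatory elements of S100a10 drive the ribosomal protein L10a tagged with EGFP. TRAP mRNA is the RNA recovered on the tagged ribosomes, and input is RNA of the whole cortex. Sh + Flx anxious mice were housed singly from weaning at postnatal day 21 for at least 7 weeks, then drank fluoxetine (Flx, a serotonin reuptake inhibitor) at 0.167 g/L for 21 days according to the labels, and were classed as anxious by behavior. The study's methods give a range of treatment lengths that ends at this one. Sh + Flx mice had the same housing and drug with normal behavior, Sh mice had single housing and vehicle, and Gh mice had group housing and vehicle. Every mouse carried the transgene, each library pooled 3 mice, and hippocampi and striata had been removed. Each group had 4 TRAP and 4 input libraries. Gh TRAP replicates 2 and 3 were nearly the same library by their counts, with a mean chi-square of 1.13 per gene where every other replicate pair had 2.17 to 407. Their counts were added up and entered as a single sample, which leaves n = 3 for Gh TRAP. The pair at 2.17 was Sh TRAP replicates 1 and 4, with a Pearson r of 0.998 on log2 counts relative to library size, as in the Gh pair. Sh TRAP replicates 1 and 4 were kept as separate samples, and no alternative summed this pair alone. Libraries held 9776244 to 64788703 counts in genes. The study's methods call the 4 libraries of a condition biological replicates. Within 7 of the 8 combinations of group and fraction, replicates 1 and 4, and 2 and 3, were the pairs that differed least, and if libraries share a pool the p-values measure technical spread in part.

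BDNF is a neurotrophin that acts through the receptor TrkB to support the growth, survival and plasticity of synapses. Inhba encodes the beta A subunit that pairs to form activin A, a ligand of the transforming growth factor beta family, and Nrn1 encodes neuritin, a small protein anchored in the outer membrane that promotes the growth and stabilization of neurites. Vgf and Scg2 encode granins, precursors that are packed into dense-core vesicles and cut into peptides. Pcsk1 encodes prohormone convertase 1/3, the protease in those vesicles that makes such cuts. Many genes of this kind are induced by calcium entry during firing, in part through the factor CREB, which binds the cAMP response element.

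On the mouse build GRCm38.p6, Bdnf lies on chromosome 2 from 109674700 to 109727043, Inhba on chromosome 13 from 16004256 to 16031609, Nrn1 on chromosome 13 from 36725622 to 36734477, Vgf on chromosome 5 from 137025301 to 137033351, Scg2 on chromosome 1 from 79434366 to 79440026 and Pcsk1 on chromosome 13 from 75089420 to 75134861. The pseudogene B230303A05Rik overlaps Inhba and the noncoding RNA gene Gm30177 overlaps Nrn1 on the opposite strand, with 0 shared exon bases, and neither was in the count tables. RefSeq promoter sequences of this build were matched for 4 of the 6 genes (all but Vgf and Nrn1), with 10 annotated starts (7 of them for Bdnf). They are shown because they tell which of these starts carry the letters of the cAMP response element close by. The full element, TGACGTCA, was searched on both strands in the 250 bases before each start and was found in 1.55% of 32851 such windows of the genome, and its core TGACG, which the full element contains, in 17.8%. The sequences are the 120 bases before a start, 5′ to 3′ on the strand of the gene, with matches in capitals.

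Scg2, chr1:79440027-79440146, minus strand: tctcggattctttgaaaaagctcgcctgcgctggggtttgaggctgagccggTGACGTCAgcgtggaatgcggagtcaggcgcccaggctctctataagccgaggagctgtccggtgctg
Pcsk1, chr13:75089737-75089856, plus strand: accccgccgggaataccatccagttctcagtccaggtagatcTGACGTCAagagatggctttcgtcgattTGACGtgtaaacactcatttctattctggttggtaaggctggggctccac
Bdnf, chr2:109692316-109692435, plus strand: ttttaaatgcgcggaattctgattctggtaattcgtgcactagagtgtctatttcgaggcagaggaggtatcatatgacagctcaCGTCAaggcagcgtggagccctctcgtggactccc
Inhba, chr13:16011731-16011850, plus strand: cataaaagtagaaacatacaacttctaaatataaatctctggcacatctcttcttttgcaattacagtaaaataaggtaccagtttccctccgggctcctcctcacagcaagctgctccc

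The full element began 68 bases before the start of Scg2 and 78 bases before that of Pcsk1, which has a further core 50 bases before it. Of the 7 Bdnf windows, only the one before 109692436 held a core, on the opposite strand and 35 bases before the start, and the Inhba window held no match. That window precedes a start at 16011851, inside the span of Inhba from 16004256, and the bases before 16004256 were not searched. These are matches of letters, not shown sites of binding.

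In whole cortex, Bdnf, Inhba and Nrn1 were higher in both Flx groups than in Sh mice. Inhba changed most, at 94.2 ± 18.4 CPM (counts relative to library size, scaled by TMM; SD, n = 4) in Sh + Flx anxious, against 38.3 ± 2.06 in Sh and 37.1 ± 6.52 in Gh, with the Sh + Flx libraries between 62.1 and 73.1. Bdnf stood at 53.6 ± 7.35 CPM in Sh + Flx anxious, 53.4 ± 2.57 in Sh + Flx, 31.2 ± 1.22 in Sh and 27.8 ± 4.89 in Gh, and Nrn1 at 314.6 ± 23.95, 287.7 ± 5.26, 217.5 ± 8.25 and 222.3 ± 4.93 CPM in the same order. Vgf showed a smaller rise, Scg2 passed the test in the anxious group and not in Sh + Flx, and Pcsk1 in neither.

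**Figure D1:**
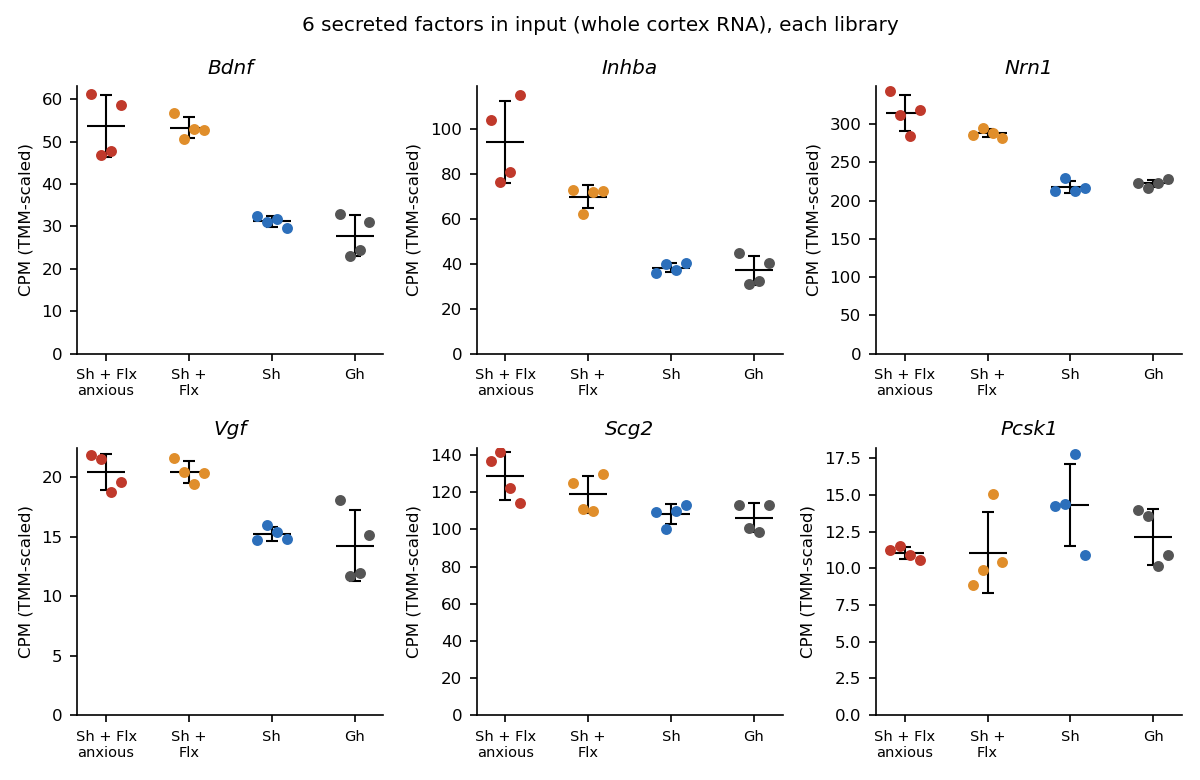
CPM (vertical axes, TMM-scaled counts relative to library size, from 0) of the 6 genes in each input library; points are libraries in the order of their replicate numbers, and bars give the mean and SD of the 4 libraries of a group. The Bdnf, Inhba and Nrn1 points of both Flx groups lie above all Sh and Gh points, whereas those of Scg2 and Pcsk1 overlap between Sh + Flx and Sh.

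Library by library, Inhba was at 104, 76.7, 81.1 and 115 CPM in Sh + Flx anxious input and at 73.1, 62.1, 72.2 and 72.6 in Sh + Flx input, against 35.8, 39.8, 37.4 and 40.2 in Sh input and 44.8, 31.0, 32.4 and 40.3 in Gh input. Both Flx groups lay above every library of the other groups, and the anxious group lay wholly above Sh + Flx. Of all genes, 6.76% lay above all Sh and 7.38% above all Gh libraries in Sh + Flx anxious, and 5.77% and 5.97% in Sh + Flx. The share wholly higher in the anxious group than in Sh + Flx was 2.72%. Bdnf was at 61.2, 46.8, 47.9 and 58.6 CPM in Sh + Flx anxious and at 56.9, 50.7, 53.0 and 52.8 in Sh + Flx, against 32.4, 31.0, 31.9 and 29.6 in Sh and 32.9, 22.9, 24.4 and 31.0 in Gh. The Flx groups overlapped each other and neither of the remaining groups. Nrn1 was at 343, 312, 285 and 319 CPM in Sh + Flx anxious and at 286, 294, 289 and 282 in Sh + Flx, against 212, 229, 212 and 217 in Sh and 222, 216, 223 and 228 in Gh. The Flx groups again overlapped each other and neither of the remaining groups, with the 4 libraries of Sh + Flx within a narrow band.

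Against Sh, 4 of the 6 genes were higher in Sh + Flx input at an adjusted p under 0.05 (edgeR's quasi-likelihood test, Benjamini-Hochberg over 15690 genes), where 1.82% of all genes tested were called higher. The log2 fold change was 0.77 for Bdnf (standard error 0.10, adjusted p = 2.49e-05), 0.86 for Inhba (0.11, adjusted p = 1.84e-05) and 0.40 for Nrn1 (0.05, adjusted p = 2.66e-05). Vgf, at 21.6, 20.5, 19.4 and 20.3 CPM against 14.8, 15.99, 15.4 and 14.9 in Sh, changed by 0.42 on the log2 scale (adjusted p = 0.0488). Its groups did not overlap, as for 5.77% of all genes in this direction. Its call held in only 7 of 22 alternatives, and leaving out any library of the Sh or the Sh + Flx group gave an adjusted p of 0.0776 to 0.143. It was also lost without any 1 of the Sh + Flx anxious libraries or Gh input replicate 4 (adjusted p = 0.0528 to 0.0570). Scg2, at 125.2, 110.8, 110.2 and 129.8 CPM, changed by 0.13 (95% interval -0.02 to 0.28). Pcsk1, at 8.87, 9.92, 15.1 and 10.4 CPM against 14.3, 14.4, 17.8 and 10.9 in Sh, changed by -0.39 (-0.70 to -0.07, adjusted p = 0.237), and it passed the test without Sh + Flx input replicate 3 (-0.57, adjusted p = 0.0426).

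In Sh + Flx anxious input, 5 of the 6 genes were higher than in Sh, where 3.98% of all genes were called higher. Inhba changed by 1.29 on the log2 scale (standard error 0.11, adjusted p = 5.1e-09), a 2.45-fold higher level, and Bdnf by 0.78 (adjusted p = 5.89e-06). Nrn1 had 0.53 (adjusted p = 8.15e-08) and Vgf 0.42 (adjusted p = 0.0240). Scg2, at 137, 142, 122 and 114 CPM in Sh + Flx anxious against 109, 100, 110 and 113 in Sh, had 0.25 (adjusted p = 0.0408). The call of Vgf was lost without Sh input replicate 1, 3 or 4 or Sh + Flx anxious input replicate 1 or 2 (adjusted p = 0.0579 to 0.0776). That of Scg2 was lost without Sh input replicate 1, 2 or 3 or Sh + Flx anxious input replicate 1 or 2 (adjusted p = 0.0747 to 0.160), and each call held in 16 of 22 alternatives. Pcsk1, at 11.2, 11.5, 10.9 and 10.6 CPM, changed by -0.38 (adjusted p = 0.153). The calls of Bdnf, Inhba and Nrn1 held in all 22 alternatives of both comparisons with Sh, including the one in which replicates 1 and 4, and 2 and 3, were summed to 2 samples a group (adjusted p at most 0.0237).

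Against Gh, 4 genes were higher in Sh + Flx input (3.1% of all genes) and 5 in Sh + Flx anxious input (6.21%). These comparisons share the Flx libraries with those above. Bdnf had log2 fold changes of 0.95 (adjusted p = 1.56e-07) for Sh + Flx anxious and 0.94 (adjusted p = 9.86e-07) for Sh + Flx, and Inhba of 1.34 and 0.91. The call of Scg2 in Sh + Flx anxious against Gh (0.28, adjusted p = 0.0131) was lost without Sh + Flx anxious input replicate 2 (adjusted p = 0.0665) or Gh input replicate 3 (adjusted p = 0.0591). None of the 6 genes passed the test between Sh and Gh input, where 0.0829% of all genes were called, and 0 of the 6 had an unadjusted p under 0.05. The 95% intervals of these differences were -0.04 to 0.38 for Bdnf and -0.13 to 0.08 for Nrn1. DESeq2 called none of the 5 for which it gave an adjusted p (all but Pcsk1).

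Between the 2 Flx groups no gene of the set passed the test in input, where 0.127% of all genes were called. Inhba came closest, with a difference of 0.43 on the log2 scale (95% interval 0.21 to 0.66, adjusted p = 0.129) and rank 60 by p among the 15690 genes. DESeq2 gave it an adjusted p of 0.0364, and it passed the test without Sh + Flx anxious input replicate 2 (log2 fold change 0.52, adjusted p = 0.0482). For Bdnf the difference was 0.01 (95% interval -0.19 to 0.22).

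Markers of some other cells moved with Flx in the same input libraries. The summed level of 6 oligodendrocyte genes was 985.1 to 1293 CPM in Sh + Flx anxious, 1253 to 1347 in Sh + Flx, 1498 to 1822 in Sh and 1631 to 1856 in Gh, and that of 6 interneuron genes was 1545 to 1612, 1549 to 1630, 1297 to 1375 and 1261 to 1359 CPM. Choroid plexus genes, 4 in number, summed to 21.7 to 87.9, 51.6 to 102, 90.8 to 114 and 101 to 199 CPM in the same order. The part of these shifts in the results was not tested, and in bulk RNA fewer cells of a type and less RNA per cell cannot be told apart. The 4 hippocampal markers summed to 378 to 408 CPM in Sh + Flx anxious and 348 to 370 in Sh + Flx, against 228 to 260 in Sh and 230 to 249 in Gh. Of these, Wfs1, which cortical neurons also express, was at 236 to 273, 203 to 236, 99.1 to 136 and 94.5 to 120 CPM, while Prox1, a marker of dentate granule cells, was at 30.7 to 37.8, 35.2 to 43.6, 41.2 to 44.6 and 40.1 to 59.4 CPM. Neurod2, which cortical neurons also express, was at 102 to 109, 94.9 to 109, 79.2 to 88.5 and 83.8 to 87.5 CPM, with both Flx groups above all Sh and Gh libraries. C1ql2, which dentate granule cells also express, was at 1.53 CPM or less in every input library.

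In TRAP mRNA, Bdnf was higher in both Flx groups than in Sh mice, and the calls of the other genes held in fewer of the comparisons. Bdnf was at 21.7, 20.3, 23.2 and 24.0 CPM in Sh + Flx anxious and at 22.3, 23.2, 22.0 and 25.3 in Sh + Flx, against 8.29, 12.7, 12.1 and 9.36 in Sh and 21.3, 15.4 and 9.82 in Gh. Both Flx groups lay above all Sh libraries, as 8.96% (Sh + Flx anxious) and 7.63% (Sh + Flx) of all genes did. The Gh libraries reached from the Sh range into that of Sh + Flx anxious. All Sh + Flx libraries lay above Gh, as for 5.78% of all genes.

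**Figure D2:**
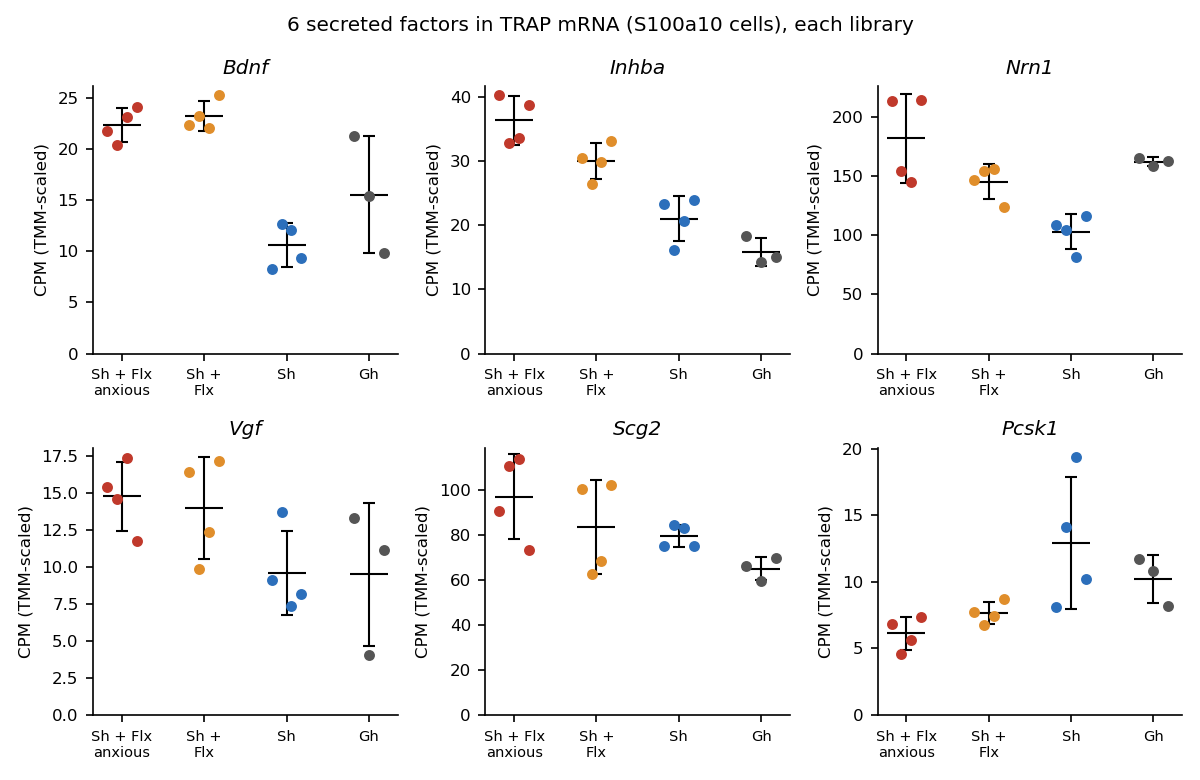
CPM (vertical axes, TMM-scaled counts relative to library size, from 0) of the 6 genes in each TRAP library; points are libraries in the order of their replicate numbers, bars give the mean and SD, and Gh has 3 points because its replicates 2 and 3 were summed. The Bdnf points of both Flx groups lie between 20.3 and 25.3, above all Sh points, and the Gh points of Bdnf range from 9.82 to 21.3.

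Inhba was at 40.4, 32.7, 33.6 and 38.7 CPM in Sh + Flx anxious TRAP and at 30.5, 26.5, 29.9 and 33.1 in Sh + Flx TRAP, against 23.3, 16.2, 20.6 and 23.99 in Sh and 18.4, 14.2 and 14.99 in Gh. Neither Flx group overlapped Sh or Gh. Of all genes, 8.96% lay above all Sh and 7.38% above all Gh libraries in Sh + Flx anxious, and 7.63% and 5.78% in Sh + Flx. Nrn1 was at 213, 154, 145 and 215 CPM in Sh + Flx anxious and at 147, 154, 156 and 124 in Sh + Flx, against 109, 104, 81.9 and 116 in Sh and 165, 158 and 163 in Gh. Sh was here the lowest group, without overlap with any other, and 6.58% of all genes lay lower in Sh than in Gh without overlap. Sh + Flx also lay below all Gh libraries, as 4.67% of all genes did. Pcsk1 went the other way, at 6.86, 4.62, 5.65 and 7.38 CPM in Sh + Flx anxious and 7.72, 6.76, 7.45 and 8.74 in Sh + Flx, against 8.12, 14.1, 19.4 and 10.2 in Sh and 11.7, 10.8 and 8.23 in Gh. The anxious group lay below all Sh and Gh libraries, as 8.82% (Sh) and 6.05% (Gh) of all genes did.

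The levels of the granins Vgf and Scg2 in both Flx groups overlapped those in Sh in TRAP. Vgf was at 15.4, 14.6, 17.4 and 11.8 CPM in Sh + Flx anxious and 16.4, 9.86, 12.4 and 17.2 in Sh + Flx, against 9.12, 13.7, 7.38 and 8.19 in Sh and 13.3, 4.08 and 11.1 in Gh. Scg2 was at 90.8, 111, 114 and 73.2 CPM in Sh + Flx anxious and 101, 62.9, 68.5 and 102 in Sh + Flx, against 75.3, 84.5, 83.0 and 75.2 in Sh and 66.1, 59.4 and 69.95 in Gh. Scg2 in Gh lay below all Sh + Flx anxious and all Sh libraries, as 7.38% and 6.46% of all genes did. Against Sh in Sh + Flx anxious TRAP neither granin passed the test (Vgf 0.63, adjusted p = 0.184, and Scg2 0.29, adjusted p = 0.3003).

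In Sh + Flx TRAP 1 of the 6 genes, Bdnf, was higher than in Sh, where 2.65% of 16754 genes were called higher. It changed by 1.12 on the log2 scale (standard error 0.21, adjusted p = 0.0118), a 2.18-fold higher level. Inhba had 0.51 (adjusted p = 0.0609), Nrn1 0.49 (adjusted p = 0.0546) and Pcsk1 -0.77 (adjusted p = 0.0752), and without Sh TRAP replicate 1, or without replicate 4, all 3 passed the test (adjusted p = 0.0223 to 0.0482). DESeq2 called the same 4 genes. In Sh + Flx anxious TRAP, 3 genes were higher than in Sh (4.35% of all genes): Bdnf with 1.08 (adjusted p = 0.00798), Inhba with 0.79 (adjusted p = 0.00865) and Nrn1 with 0.82 (adjusted p = 0.00591). Pcsk1 was the 1 gene lower, with -1.08 (standard error 0.26, adjusted p = 0.0176), where 6.14% of all genes were called lower.

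Sh TRAP 2 and 3 stood apart, with S100a10, the gene whose elements drive the tag, at 19.1 and 11.9 CPM where all remaining TRAP libraries had 39.6 to 68.4. The nuclear RNA Malat1 had 23784 and 43481 CPM in the pair, and 2864 to 7253 in the rest. Summed astrocyte markers were also high in Sh TRAP, at 2592 to 3859 CPM. They were at 1604 to 2613 in Sh + Flx anxious TRAP and 1608 to 2339 in Sh + Flx TRAP. Oligodendrocyte markers were at 739.8 to 1312.8 CPM in Sh TRAP, against at most 625.7 (anxious) and 719.7. Striatal markers were at 197.7 to 273.5, against at most 188.1 and 188.7. Excitatory neuron and interneuron markers reached 5885.5 and 1262.6 in Sh TRAP, but overlapped the Flx groups. Meningeal fibroblast markers ranged from 266.0 to 909.4 there. Hippocampal markers were lower, at 124.4 to 167.7, against at least 196.2 and 171.4. The part of these shifts in the results was not tested. Without Sh TRAP 2 and 3, Bdnf had a log2 fold change of 1.40 for Sh + Flx (adjusted p = 0.00503) and 1.35 for Sh + Flx anxious (adjusted p = 0.00402), as large as with them. In the anxious group Inhba then had 0.63 (adjusted p = 0.0338) and Nrn1 0.70 (adjusted p = 0.0133), whereas Pcsk1 had -0.57 (adjusted p = 0.188) and was no longer called. It was also lost without Sh TRAP replicate 3 alone (adjusted p = 0.0575) or without Sh + Flx anxious TRAP replicate 2 or 3 (adjusted p = 0.0595 and 0.0533). With replicates 1 and 4, and 2 and 3, summed to 2 samples a group, no gene of the set passed the test in TRAP, and the adjusted p of Bdnf was 0.447 for Sh + Flx and 0.328 for Sh + Flx anxious. A fit of the 2 compared groups alone gave Bdnf 0.0920 and 0.0474.

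**Figure D3:**
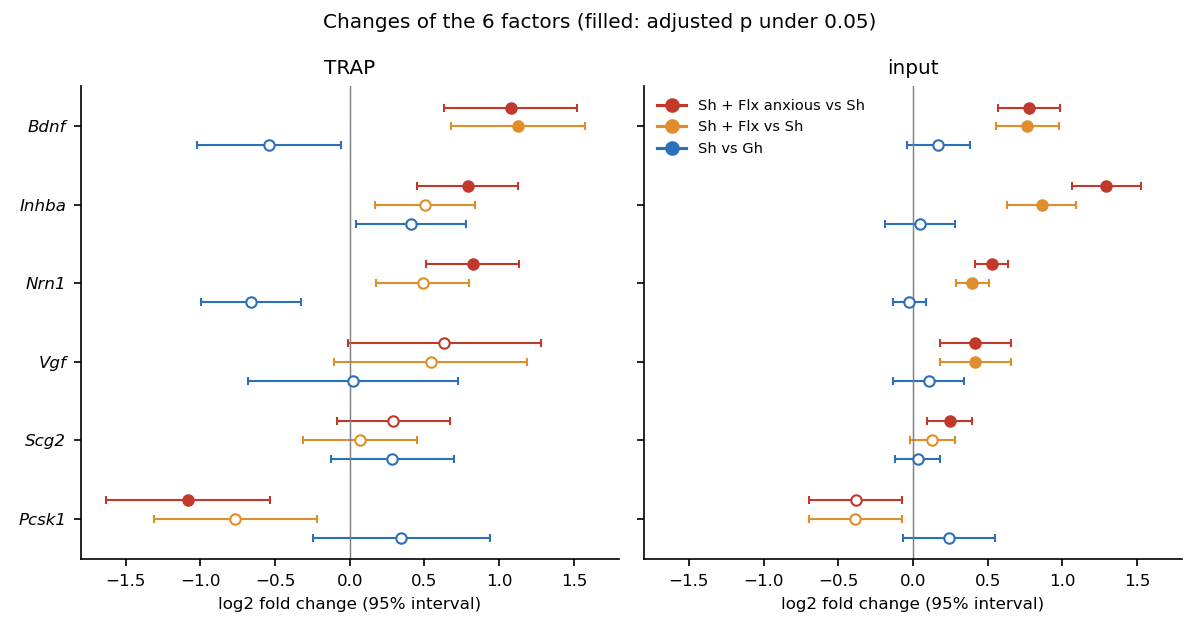
Log2 fold changes (horizontal axes, edgeR) of the 6 genes in TRAP and input with 95% intervals, for Sh + Flx anxious and Sh + Flx against Sh and for Sh against Gh; filled points had an adjusted p under 0.05. Bdnf is filled for both Flx groups in both fractions, at 0.77 to 1.12, and Pcsk1 lies left of 0 for both.

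Sh TRAP differed from Gh TRAP for 0 of the 6 genes at an adjusted p under 0.05, where 0% of all genes were called. Bdnf, Inhba and Nrn1 had an unadjusted p under 0.05, as 2634 of all genes had. Nrn1 had the 35th smallest p of 16754 genes, with a log2 fold change of -0.66 (95% interval -0.99 to -0.33, adjusted p = 0.206), and DESeq2 called it (adjusted p = 0.0285). Without Sh TRAP 2 and 3 its log2 fold change was -0.55 (adjusted p = 0.163). The study's published edgeR comparison of these 2 groups lists Nrn1 as lower in Sh, at an adjusted p under 0.05. Bdnf had -0.54 (95% interval -1.02 to -0.06) and Inhba, in the other direction, 0.41 (0.04 to 0.78).

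Against Gh, Inhba was the only 1 of the 6 that was higher in Sh + Flx anxious TRAP, by 1.20 on the log2 scale (standard error 0.18, adjusted p = 0.0100), a 2.30-fold higher level and the 4th smallest p, where 0.0716% of all genes were called higher. Its call was lost without Gh TRAP replicate 4 (adjusted p = 0.122) or without the summed Gh TRAP replicates 2 and 3 (adjusted p = 0.0898). In Sh + Flx TRAP it had 0.92 (adjusted p = 0.0829), where 0.00597% of all genes, and 0 of the 6, were called. It passed there without Sh TRAP replicate 3 (adjusted p = 0.0328), without Sh TRAP 2 and 3 (adjusted p = 0.00257) and with Gh TRAP 2 and 3 as separate libraries (adjusted p = 0.0113). Between the 2 Flx groups none of the 6 passed the test in TRAP with edgeR or DESeq2, where 0% of all genes were called by edgeR and 724 had an unadjusted p under 0.05. Of the 6, Nrn1 was among these, at 0.33 (95% interval 0.02 to 0.64).

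TRAP mRNA held less of these genes than input did. In Gh mice 4 of the 6 were lower in TRAP than in input, where 21.9% of 17015 genes were called lower: Inhba with a log2 fold change of -1.24 (adjusted p = 9.5e-08), Bdnf with -0.87 (adjusted p = 0.000182), Scg2 with -0.71 (adjusted p = 0.000222) and Nrn1 with -0.46 (adjusted p = 0.00261). The call of Nrn1 was lost with replicates 1 and 4, and 2 and 3, summed (adjusted p = 0.0615). Vgf, at -0.62, missed the threshold (adjusted p = 0.0524). It passed without Gh TRAP replicate 1 (adjusted p = 0.0107) and without Gh TRAP replicate 4, Gh input replicate 2 or 3, Sh TRAP replicate 3 or 4 or Sh + Flx TRAP replicate 2 (adjusted p = 0.0391 to 0.0498), and Pcsk1 had -0.26 (adjusted p = 0.396). Over the mean of the 4 groups all 6 were lower, where 37.4% of all genes were. The values ran from -1.23 for Bdnf (standard error 0.08) to -0.45 for Pcsk1 (0.11, adjusted p = 0.000596), beside a median of -0.075 over all genes. S100a10 itself stood at 53.4 ± 0.58 CPM in Gh TRAP (SD, n = 3) and 8.80 ± 1.69 in Gh input (SD, n = 4), and the summed interneuron markers at 560 to 627 and 1261 to 1359 CPM. Summed meningeal fibroblast markers were at 631 to 698 CPM in Gh TRAP and 15.2 to 19.0 in Gh input, and endothelial markers at 105 to 131 and 11.6 to 17.3. Layer 5 markers were at 536 to 565 and 712 to 818 CPM, and excitatory neuron markers at 2702 to 2842 and 3372 to 4086. The part of a different mix of cells in these differences was not tested.

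Whether Flx changed these genes differently in the 2 fractions was tested as an interaction in 1 fit of all libraries. None of the 6 was called in any of the 5 such contrasts, where 7.31% (Sh + Flx anxious against Sh), 2.97% (Sh + Flx against Sh), 0.0235% (Sh against Gh), 0.0294% (Sh + Flx anxious against Gh) and 0.0529% (Sh + Flx against Gh) of all genes were. For Sh + Flx against Sh the change in TRAP minus the change in input was 0.37 for Bdnf (95% interval -0.10 to 0.83) and 0.09 for Nrn1 (-0.23 to 0.41). For Sh + Flx anxious against Sh it was -0.51 for Inhba (-0.91 to -0.12, adjusted p = 0.0981) and -0.70 for Pcsk1 (-1.31 to -0.08, adjusted p = 0.148). For Sh against Gh it was -0.63 for Nrn1 (-0.96 to -0.29, adjusted p = 0.173), which passed the test without Sh TRAP replicate 4 (-0.69, adjusted p = 0.0465) and with DESeq2 (adjusted p = 0.0378). Pcsk1 passed it for Sh + Flx anxious against Sh without Sh TRAP replicate 1 (-0.87, adjusted p = 0.0379). For Sh + Flx against Gh the change in TRAP minus that in input was -0.53 for Nrn1 (-0.86 to -0.20, adjusted p = 0.391).

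Levels differed more between the genes than between the groups. Per kilobase of exon, Nrn1 was the most abundant, at 177.8 ± 13.5 CPM per kb (SD, n = 4) in Sh + Flx anxious, 162.7 ± 2.97 in Sh + Flx, 123 ± 4.66 in Sh and 125.7 ± 2.79 in Gh input. Scg2 followed at 47.3 ± 4.74, 43.7 ± 3.68, 39.7 ± 1.997 and 39.0 ± 2.84. Inhba, Vgf and Bdnf lay at 6.01 ± 0.32, 5.98 ± 0.23 and 4.65 ± 0.18 in Sh input, where the difference between Inhba and Vgf was within the SD. In Sh + Flx anxious input Inhba, at 14.8 ± 2.88, was above Vgf (8.02 ± 0.59) and Bdnf (7.99 ± 1.10), which were within an SD of each other. Pcsk1 was lowest, at 2.21 ± 0.08, 2.21 ± 0.55, 2.86 ± 0.56 and 2.42 ± 0.38. By level in input the order for Bdnf and Nrn1 was Sh + Flx anxious, Sh + Flx, then Sh and Gh close together, with neither the first nor the last pair of Bdnf differing beyond its spread. The smallest count of any of the 6 genes in a library was 81 reads (Vgf, Gh TRAP replicate 3).

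Across the 16 input libraries the profiles of the genes were alike, which includes the differences between groups. Bdnf correlated with Inhba at a Pearson r of 0.953 on log2 CPM, with Vgf at 0.939 and with Nrn1 at 0.922, and Inhba with Nrn1 at 0.957. After the group means were taken out, r was 0.876 for Bdnf with Inhba, 0.753 with Vgf and 0.480 with Nrn1. Pcsk1 had r between -0.49 and -0.32 with the other 5, and between -0.135 and 0.093 within groups. Over 15 TRAP libraries Bdnf and Inhba had an r of 0.626, and 0.008 within groups. Bdnf and Pcsk1 had -0.443 there, and 0.73 within groups.

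Of 14358 genes in input, those nearest in profile to Bdnf included Inhba and Wdr7 (0.947). Those nearest to Inhba were Raph1 (0.988), Kcnip3 (0.980) and Rasgrp1 (0.974), a calcium-regulated activator of Ras, and those nearest to Nrn1 were Igfbp4 (0.977), Amph (0.972) and Strip2 (0.971). For Vgf they were Syt6 (0.940), Bdnf and AI414108 (0.934), for Scg2 Rpn1 (0.930), Pcnx (0.909) and Mboat7 (0.900), and for Pcsk1 Zdhhc15 (0.790), Zfp90 (0.788) and Fxyd7 (0.773). Over 15279 genes in 15 TRAP libraries, Bdnf was most like Cs (0.943), Uck1 (0.909) and Psmd12 (0.897). Inhba was most like Col5a2 (0.920), Shroom2 (0.916) and Arl15 (0.897) there, and genes most like Nrn1 included Mllt11 (0.942) and Tagln3 (0.941). Genes most like Scg2 included Aldoc (0.929) and Scg3 (0.910). Vgf was most like Gpi1 (0.841), Syt5 (0.833) and Grasp (0.827), and Pcsk1 like Zmym6 (0.950), Olfr856-ps1 (0.944) and Nsl1 (0.944).

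Among related genes in input, the granins Chga and Chgb were higher in both Flx groups than in Sh. Of 12 genes of granins and prohormone processing, 2 were higher and 1 lower in Sh + Flx anxious than in Sh, where 3.98% of all genes were called higher and 2.87% lower. The median log2 fold change was 0.05, beside -0.001 over all genes. Chga, which encodes chromogranin A, had 1.05 (adjusted p = 5.28e-09) and Chgb, chromogranin B, 0.61 (adjusted p = 1.79e-06), while Scg5, the chaperone 7B2 of the convertase PC2, fell by 0.27 on the log2 scale (adjusted p = 0.0222). In Sh + Flx the same 2 were higher, with 0.64 and 0.42, and none was lower (1.82% and 0.797% of all genes, median 0.009 beside -0.004). In TRAP mRNA, 2 of the 12 were higher in Sh + Flx anxious than in Sh, Chga with 1.43 (adjusted p = 0.00565) and Chgb with 0.70 (adjusted p = 0.0187), and none in Sh + Flx (4.35% and 2.65% of all genes, medians 0.10 and -0.08 beside -0.01 and -0.02).

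Of 16 activin signaling genes tested in input, 3 were higher and 0 lower in Sh + Flx anxious than in Sh (3.98% and 2.87% of all genes, median 0.04 beside -0.001). They were Acvr1c, which encodes the receptor ALK7 (0.47, adjusted p = 2.75e-05), Acvr1, the receptor ALK2 (0.59, adjusted p = 0.000482), and Fstl5, a follistatin-like protein (0.39, adjusted p = 0.0250). In Sh + Flx input Acvr1 was higher (0.54, adjusted p = 0.00319) and no other was called (1.82% and 0.797% of all genes, median -0.07 beside -0.004). In TRAP mRNA none of the 16 was called in either comparison with Sh, where 10.5% (Sh + Flx anxious) and 6.46% (Sh + Flx) of all genes were.

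Of the 9 neurotrophins and receptors tested in input, 1 was higher and 1 lower in Sh + Flx anxious than in Sh (3.98% and 2.87% of all genes, median 0.09 beside -0.001). None was called in Sh + Flx (1.82% and 0.797% of all genes, median -0.12 beside -0.004). Sorcs3, a sorting receptor of the sortilin family, stood 0.54 higher on the log2 scale (adjusted p = 0.00107), and Ntf3, which encodes neurotrophin-3, fell by 2.07 on the log2 scale (standard error 0.63, adjusted p = 0.0450). In TRAP mRNA, none of 11 was called in either comparison with Sh, where 10.5% (Sh + Flx anxious) and 6.46% (Sh + Flx) of all genes were. Their medians were -0.24 for Sh + Flx anxious and -0.33 for Sh + Flx, beside -0.01 and -0.02 over all genes.

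**Figure D4:**
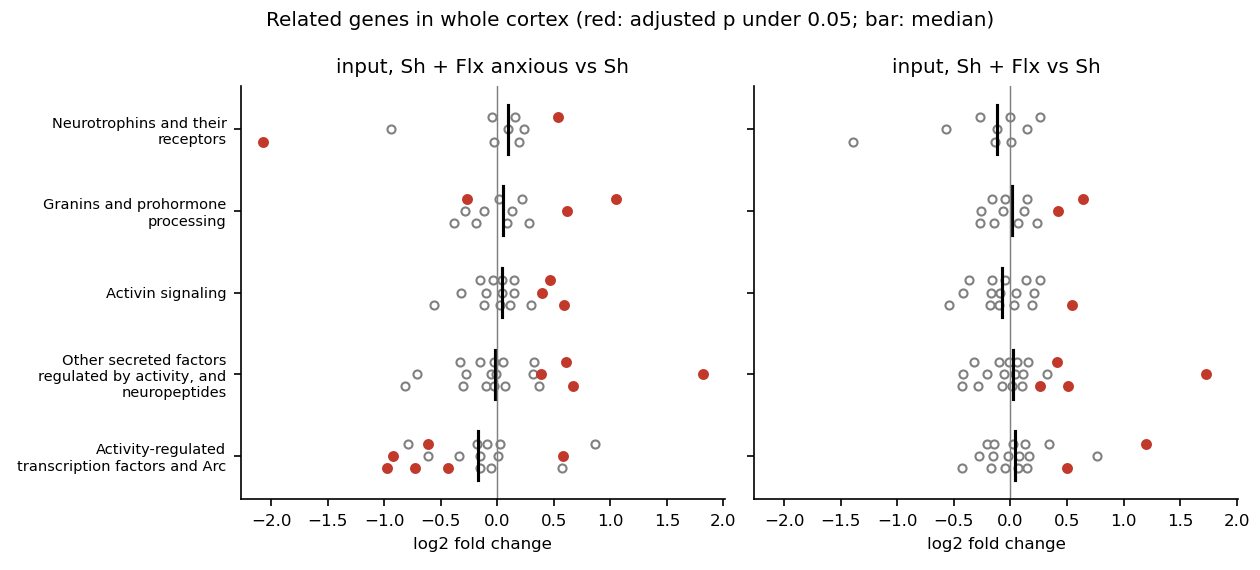
Log2 fold changes (horizontal axes, edgeR) in input of each tested gene of 5 lists of related genes, for Sh + Flx anxious and for Sh + Flx against Sh; red points had an adjusted p under 0.05 and black bars are medians of the lists. Of the activity-regulated transcription factors and Arc, 5 lie left of 0 in red for Sh + Flx anxious, whereas red points of the other secreted factors all lie right of 0.

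Of 20 other secreted factors and neuropeptides, 4 were higher and 0 lower than in Sh in both Flx groups in input: Nptx2, Nptx1, Npy and Cck. Of all genes, 3.98% were called higher and 2.87% lower in Sh + Flx anxious, and 1.82% and 0.797% in Sh + Flx. Nptx2, a pentraxin that gathers AMPA receptors at synapses, had 1.82 in Sh + Flx anxious and 1.73 in Sh + Flx, more than any of the 6 genes described here. The medians of this list were -0.02 and 0.02, beside -0.001 and -0.004 over all genes. In TRAP mRNA, of 19 tested, 5 were higher and 0 lower in Sh + Flx anxious than in Sh (4.35% and 6.14% of all genes, median 0.52 beside -0.01), among them Nptx2 (2.03), Cck (0.998) and the enkephalin precursor Penk (0.93), and 3 were higher and 1, Lif, lower in Sh + Flx (2.65% and 3.81% of all genes, median 0.20 beside -0.02).

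Of the 18 genes of activity-regulated transcription factors and Arc, 1 was higher, 5 were lower and 12 were not called in Sh + Flx anxious input against Sh (3.98% and 2.87% of all genes called higher and lower, median -0.17 beside -0.001). Jun was the higher one (0.58, adjusted p = 0.000195), and Nr4a2, Fosl2, Nr4a3, Egr1 and Nr4a1 fell by 0.44, 0.72, 0.98, 0.61 and 0.93 on the log2 scale. In Sh + Flx input 2 of them, Jun (0.50) and Fosb (1.20), were higher and none was lower (1.82% and 0.797% of all genes, median 0.04 beside -0.004). In TRAP mRNA 4 were higher in Sh + Flx than in Sh, Nr4a3, Crem, Fosb and Fosl2 (2.65% of all genes, median 0.17 beside -0.02). None was called in Sh + Flx anxious TRAP against Sh, where 10.5% of all genes were (median 0.002 beside -0.01).

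Fos showed how unlike the replicates of a group could be, at 30.6, 3.17, 2.09 and 30.6 CPM in the 4 Sh + Flx anxious TRAP libraries and 2.69, 12.2, 12.5 and 2.49 in the Sh TRAP libraries. Bdnf, in the same Sh + Flx anxious TRAP libraries, stayed between 20.3 and 24.04 CPM. Nrn1 (213, 154, 145 and 215 CPM), Inhba (40.4, 32.7, 33.6 and 38.7 CPM) and Pcsk1 were there, like Fos, higher in replicates 1 and 4. Scg2 was lower in those replicates, and Vgf followed neither order. In Sh + Flx anxious input, Fos (17.7, 3.69, 5.79 and 17.0 CPM) was high in replicates 1 and 4, in which Bdnf and Inhba were also at their highest.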

How the data were processed

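The deposited files hold, for each of the 32 libraries, raw counts of reads per gene that the authors made: RNA was amplified with Ovation RNA-Seq V2, sequenced as 75-base paired ends and aligned with TopHat2 2.0.11 to mm10. The sources used here name neither the counting program nor its strand setting, and the Ovation kit does not mark strand. The submitters' notes also name Cufflinks 2.2.1, edgeR 3.8.6 and DESeq2; the deposited tables of group mean FPKM and of the authors' own comparisons were not used.

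Library sizes and tests exclude the 5 lines per table with no gene name, of which the reads in no annotated feature made up 25.2% to 58.6% (TRAP) and 45.1% to 55.2% (input) of a library's reads. Counts in genes were 9776244 to 64788703 per TRAP library (median 26535218) and 19265435 to 34515281 per input library (median 26411126), and the number of libraries, not depth, limits the precision.

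Tests were run with edgeR 4.0.16 (limma 3.58.1) in R 4.3.3: TMM, filterByExpr by group, glmQLFit and glmQLFTest with no covariates, Benjamini-Hochberg adjustment over the genes that passed the filter, called at 0.05. TRAP, input and joint fits held 16754, 15690 and 17015 genes. CPM are counts per library size scaled by 1 set of TMM factors over all libraries, and log2 CPM for correlations had a prior count of 2. The procedure was tested on simulated data. Alternatives were DESeq2 1.42.0, its size factors in edgeR, no filter, each replicate left out, Sh TRAP 2 and 3 left out, Gh TRAP 2 and 3 kept separate, replicates 1 and 4, and 2 and 3, summed, fits of the 2 groups alone and a replicate block. The labels do not say that replicate numbers pair libraries. All 4 same-numbered Sh and Gh TRAP libraries deviated together (correlations of 0.126 to 0.255, against up to 0.236 for unlike numbers), and with the block, and Gh TRAP 2 and 3 separate, none of the 6 genes was called there, as without it.

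The 6 genes, the lists of related genes and the markers were chosen with earlier results of these data known. The rule named all 6 genes, the 3 genes most correlated with each in each fraction (passing over predicted models; some of these are not reported here), and up to 4 called members of each list with the smallest p; Egr1 and Nr4a1, beyond these 4, and Fos were added after their values were seen. Exon lengths and promoters are from RefSeq on GRCm38.p6, the build of mm10. Python 3.11.15 with pandas 2.3.3, numpy 2.4.6 and matplotlib 3.10.9 made the tables and plots.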

Additional observations from a re-analysis of the deposited data

Results flagged for a closer look

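Inhba stood at 62.14 CPM in Sh + Flx input replicate 2, apart from the other libraries of its group at 72.2 to 73.1 CPM. Of 42 sets of 4 libraries of a gene, group and fraction examined for a single value far from the rest (Dixon's criterion), it was the only 1 found, and chance marks about 1 in 20 such sets. The library lay above all Sh and Gh input libraries all the same, and Inhba kept its call in Sh + Flx against Sh without it.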

How the results depend on the processing

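Of 34 calls of the 6 genes over 19 comparisons, 21 held under every alternative and none changed sign. Number of genes called, against 0 in the fit described above: 1 with DESeq2 for TRAP Sh against Gh (Nrn1), TRAP Sh + Flx against Gh, input Sh + Flx anxious against Sh + Flx, and the change in TRAP minus that in input for Sh against Gh; 1 for TRAP Sh + Flx against Gh with Gh TRAP 2 and 3 separate, without Sh TRAP 2 and 3, and with the 2 groups alone; and 1 without a filter for input Sh + Flx anxious against Sh + Flx. For TRAP Sh + Flx against Sh (1 gene) it was 4 with DESeq2, 3 with Gh TRAP 2 and 3 separate, and 0 with the 2 groups alone. For TRAP Sh + Flx anxious against Sh (4 genes) it was 1 with the 2 groups alone. With replicates 1 and 4, and 2 and 3, summed, it was 0 for TRAP Sh + Flx against Sh, Sh + Flx anxious against Sh and Sh + Flx anxious against Gh, and 3 for input Sh + Flx anxious against Sh and against Gh (5 each); fewer samples enter this fit. Elsewhere the cause was not tested.

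Leaving out 1 library at a time gave 1 to 4 genes for TRAP Sh + Flx against Sh, 3 to 4 for TRAP Sh + Flx anxious against Sh, 0 to 1 for TRAP Sh + Flx against Gh, 0 to 1 for TRAP Sh + Flx anxious against Gh, 3 to 4 for input Sh + Flx against Sh, 3 to 5 for input Sh + Flx anxious against Sh, 4 to 5 for input Sh + Flx anxious against Gh, 0 to 1 for input Sh + Flx anxious against Sh + Flx, 4 to 5 for TRAP against input in Gh, and 0 to 1 for the change in TRAP minus that in input for Sh against Gh and for Sh + Flx anxious against Sh. Without Sh TRAP replicate 1 Pcsk1 passed the last of these tests (adjusted p = 0.0379).

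Replicate numbers were shared between groups. Outside Sh against Gh in TRAP, no 2 groups or fractions had every same-numbered pair correlated over 0.1: correlations of same-numbered deviations ran from -0.03 to 0.18 between TRAP and input, with 5 of 16 over 0.1, and from -0.33 to 0.26 and -0.22 to 0.20 between groups in TRAP and input, with 5 of 24 over 0.1 in each. With the replicate number as a block together with Gh TRAP 2 and 3 separate, 2 genes were called for TRAP Sh + Flx against Sh and 1 for TRAP Sh + Flx against Gh, where Gh TRAP 2 and 3 separate without the block gave 3 and 1. In input the block called 3 genes for Sh + Flx against Sh (Vgf was lost).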
